A study of Mus musculus with 16 samples.

Results

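Gpnmb encodes glycoprotein non-metastatic melanoma protein B, a single-pass membrane glycoprotein of lysosomes, melanosomes and phagosomes. It was 1 of 45724 genes counted in cultured mouse neurons that had received 1 of 3 peptides or a vehicle. It was chosen by its normalized counts in these libraries, whose difference between the peptide groups and the controls was already known, so its levels are given here as a description, with no test. Only its relation to other genes within groups, and the other genes themselves, were tested.

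The cells were primary neurons from C57BL/6 mouse brain at postnatal day 0 (P0). The 4 control libraries came from cultures with the vehicle DPBS, a phosphate-buffered saline that all comparisons share as their reference. The 3 other groups, also of 4 libraries each, received NP24, Tβ10 or Tβ4 (Tb10 and Tb4 in the plots), which the study attributes to the subcommissural organ, a secretory gland lining part of the ventricles. Tβ10 and Tβ4 belong to the β-thymosins, a family of short actin-binding peptides. The dose, the time of exposure and whether the libraries came from separate cultures are not given in the sources used here, so each p-value below measures spread between these libraries, which may be technical.

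As background, GPNMB is made by melanocytes, osteoclasts, dendritic cells and macrophages, and in the brain chiefly by microglia, the resident phagocytes. Its gene is a known target of the MiT/TFE transcription factors (MITF, TFEB, TFE3 and TFEC), which bind E-box motifs and drive genes of the lysosome. In phagocytes its transcript rises when lysosomes are loaded with lipid or other undigested material, and it is among the genes of the disease-associated microglial state. The ectodomain can be shed by ADAM10, and the soluble form binds CD44, syndecan-4 and integrins on other cells. PMEL, the fibril protein of melanosomes, is a relative.

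The gene lies on the forward strand of chromosome 6 in GRCm38, from base 49036546 to 49070929 in GENCODE M21 (ENSMUSG00000029816.10). Its annotated exons merge into 13 blocks with 6514 bases in all. No other annotated gene overlapped it. The RefSeq model starts 28 bases earlier and ends 12747 bases before the GENCODE end. Downstream, Malsu1, which encodes an assembly factor of the mitochondrial ribosome, begins 2866 bases beyond Gpnmb. Malsu1 stood at 425 ± 52.7 normalized counts (SD, n = 4) in the controls and at 358 ± 42.2 after NP24, 405 ± 14.8 after Tβ10 and 429 ± 58.4 after Tβ4, and it did not pass the test in any comparison. Igf2bp3, which encodes an RNA-binding protein and lies 14294 bases away, did not pass in any comparison either.

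The 300 bases around the RefSeq start (250 before it and 50 from it on, GRCm38.p6, RefSeq) are shown for Gpnmb and for 2 lysosomal genes that fell with NP24 and Tβ10. Ctsd encodes the aspartic protease cathepsin D, and Cd68 encodes a glycoprotein of macrophage lysosomes. They are printed so that the motif of the MiT/TFE factors (CACGTG) and that of AP-1 (TGACTCA, or TGAGTCA when it reads on the other strand), both in capitals, can be compared.

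Gpnmb, chr6:49036268-49036567, forward strand: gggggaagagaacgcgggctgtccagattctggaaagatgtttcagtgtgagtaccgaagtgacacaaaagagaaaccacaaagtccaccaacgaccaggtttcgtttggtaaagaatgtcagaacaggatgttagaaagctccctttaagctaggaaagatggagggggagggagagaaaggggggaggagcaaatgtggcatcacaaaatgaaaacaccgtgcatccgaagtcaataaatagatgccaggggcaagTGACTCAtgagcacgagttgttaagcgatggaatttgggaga

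Ctsd, chr7:142387778-142388077, reverse strand: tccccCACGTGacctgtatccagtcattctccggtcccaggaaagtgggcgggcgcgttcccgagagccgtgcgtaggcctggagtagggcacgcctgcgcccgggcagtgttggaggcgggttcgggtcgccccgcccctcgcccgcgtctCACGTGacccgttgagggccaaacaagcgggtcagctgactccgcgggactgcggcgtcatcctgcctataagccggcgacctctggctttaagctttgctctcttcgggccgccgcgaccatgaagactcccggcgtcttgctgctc

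Cd68, chr11:69666121-69666420, reverse strand: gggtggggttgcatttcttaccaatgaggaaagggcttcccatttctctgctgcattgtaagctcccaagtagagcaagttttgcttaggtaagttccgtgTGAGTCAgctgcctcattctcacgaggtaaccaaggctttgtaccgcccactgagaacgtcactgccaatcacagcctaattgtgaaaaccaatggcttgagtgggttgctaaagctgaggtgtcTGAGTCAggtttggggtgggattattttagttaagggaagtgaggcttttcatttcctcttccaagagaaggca

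On both strands 5 motifs were searched. Beside CACGTG and TGACTCA they were CATGTG, a variant E-box, the core of the antioxidant response element, which is TGACNNNGC, and the amino acid response motif, which is spelled TGATGNAA. The Gpnmb window held TGACTCA once, at base 9 counted from the start as base 1, and held none of the other 4. TGACTCA was found in 5.20% of 32851 promoter windows of this length. Ctsd held CACGTG at bases -245 and -98, a motif found in 7.15% of all windows and in 17 of the 75 lysosomal list genes with a window (22.7%), which is 75 of the 93 genes of those lists. Ctsd also held the antioxidant response element core at base -62 and, on the opposite strand, at base -47. That core was found in 12.4% of all windows and likewise in 17 of the 75 lysosomal genes (22.7%). Cd68 held TGACTCA on the opposite strand at bases -149 and -24. These matches describe the letters of the windows only.

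Each library held between 11642242 and 38254320 reads assigned to genes, and the values are counts divided by 1 size factor per library (normalized counts). Tβ4 library 1 stood apart from the rest: 24.3% of its reads were mitochondrial ribosomal RNA, against 4.76% to 15.46% in the other 15 libraries, and it had the largest number of genes with a read (38072). The main Gpnmb values that rest on this library are given with and without it. Neuronal transcripts were abundant in every group, with a summed level of 16 neuronal markers of 94040 to 104300 in the controls and of 80593 to 122423 over the 12 peptide libraries. The libraries also held transcripts of astrocytes, oligodendrocyte lineage cells, fibroblasts and microglia.

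In the controls Gpnmb was a transcript of middling abundance. Its 4 control libraries held 471, 529, 377 and 568 reads, which correspond to 556, 495, 304 and 494 normalized counts, with a mean of 462 ± 110 (SD, n = 4). Control library 3 was the lowest of the group. Per kilobase of exon, the control mean was 71.0 normalized counts, at percentile 49.3 of 22403 genes.

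With NP24 the 4 libraries held 34.3, 52.2, 83.5 and 42.7 normalized counts from 37, 49, 72 and 48 reads, with a mean of 53.2 ± 21.5 (SD, n = 4). All 4 lay below the lowest control, as was so for 4.77% of the 21774 genes tested. With Tβ10 the libraries held 15.01, 59.9, 38.7 and 44.3 normalized counts from 28, 54, 43 and 26 reads, with a mean of 39.5 ± 18.6 (SD, n = 4). The NP24 and Tβ10 ranges overlapped, and neither overlapped the control range; with Tβ10 the libraries lay wholly below the controls for 3.95% of 21960 genes.

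With Tβ4 the libraries were spread much more widely. Library 1 held 723 normalized counts (593 reads), more than any control, while libraries 2, 3 and 4 held 157, 279 and 261 (138, 404 and 221 reads), all below the lowest control. The Tβ4 mean was 355 ± 251 (SD, n = 4), and without library 1 it was 232 ± 66.0 (SD, n = 3). The Tβ4 range therefore overlapped the control range with library 1 and did not overlap it without library 1. Among 22205 genes, 2.17% had all 4 Tβ4 libraries below all controls, and 3.12% had libraries 2, 3 and 4 below them.

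**Figure D1:**
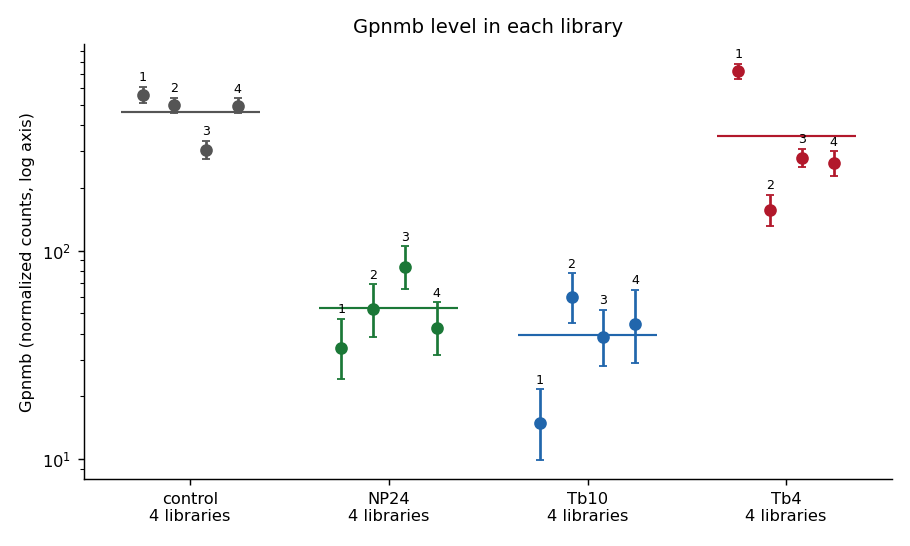
Gpnmb in each of the 16 libraries, in normalized counts on a log axis; points are libraries with their number, error bars are exact 95% Poisson intervals of the read count, which cover counting error only, and horizontal lines are group means. The NP24 and Tb10 libraries lie between 15.01 and 83.5, the controls between 304 and 556, and the Tb4 libraries between 157 and 723.

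From the highest mean to the lowest the order was control, Tβ4, NP24 and Tβ10. Control and Tβ4 did not differ beyond their spread with all libraries, and nor did NP24 and Tβ10. The ranges of Tβ4 and NP24 did not overlap, since the lowest Tβ4 library stood at 157 and the highest NP24 library at 83.5. The related peptides Tβ4 and Tβ10 did not overlap either: the Tβ4 mean was 8.99-fold that of Tβ10, and 5.88-fold without Tβ4 library 1. As their doses are not known to match, the values stand side by side only.

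On the log2(value + 1) scale Gpnmb was lower than control by a difference of -3.14 ± 0.26 (SE) with NP24, which is 8.81-fold, and of -3.63 ± 0.33 with Tβ10, which is 12.4-fold. With Tβ4 the difference was -0.58 ± 0.36, and -0.999 ± 0.254 without library 1. Ordered from the most lowered gene, Gpnmb was at place 10 of 21774 genes with NP24, place 3 of 21960 with Tβ10 and place 1045 of 22205 with Tβ4 (place 307 of 21607 without library 1). The median differences of all genes tested were -0.00376, -0.00491 and -0.00335. The authors' deposited table gives log2 fold changes of -3.12 ± 0.489 (SE) for NP24, -3.57 ± 0.493 for Tβ10 and -0.38 ± 0.481 for Tβ4.

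The libraries of a group differed by more than counting error alone would give. In the controls the coefficient of variation of Gpnmb was 23.7%, against 4.59% from counting. With NP24 it was 40.4% against 14.3%, with Tβ10 47.2% against 17.03%, and with Tβ4 70.8% against 6.31%. Without Tβ4 library 1 the Tβ4 coefficient was 28.4%. Per kilobase, Gpnmb stood at percentile 49.3 in the controls, at percentile 11.4 with NP24 (8.16 normalized counts per kilobase), at 7.52 with Tβ10 (6.06) and at 42.8 with Tβ4 (54.5), or 33.9 (35.7) without Tβ4 library 1.

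The first group of genes set beside Gpnmb was a list of 30 microglia and macrophage markers. In the controls the lysosomal proteins Cd68 (132 normalized counts per kilobase), the lysozyme Lyz2 (80.4) and the cysteine protease Ctss (57.7) stood near the level of Gpnmb (71.0), and the lysosomal adaptor Laptm5 stood at 18.1. The fractalkine receptor Cx3cr1 was much higher, at 290 per kilobase. Some defining markers were nearly absent: Tmem119 was at 0 in 11 of 16 libraries, Siglech in 10 and Cd14 in 8. In bulk RNA, fewer cells of a type and less RNA per cell cannot be told apart.

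Genes were tested with limma on log2(value + 1), adjusted over all genes by the Benjamini-Hochberg method at a threshold of 0.05, when at least 4 of the 8 libraries compared held at least 10 normalized counts. Gpnmb met that minimum in all 3 comparisons. With NP24, 5 of the 18 microglial genes tested fell and none rose. All genes compared gave 2.63% called (1.47% lower, 1.16% higher). Among the genes that fell, the log2 differences were -2.78 for Laptm5 (adjusted p = 0.0045, limma), -2.54 for Lyz2 (0.00413), -2.05 for Ctss (0.00857) and -1.28 for Cd68 (0.00973). The list's median difference was -1.02, against -0.00376 for all genes. Only 1 of the 5 calls was left without control library 1, and that gene was Laptm5. Its NP24 libraries other than library 4 held at most 7.46 normalized counts, below the minimum of 10. The controls thus brought it into the test, together with NP24 library 4 in the fit without control library 1. For this gene the filter favours a lower level with NP24, so the call is weak support for its direction or stability.

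With Tβ10, 2 of the 20 microglial genes tested fell and none rose, where 0.633% of all genes were called (0.533% lower, 0.1% higher). They were Lyz2 (-2.75, adjusted p = 0.00932, limma) and Cd68 (-1.30, 0.0341). Ctss and Laptm5 had differences of -1.34 and -2.08 and did not pass (adjusted p = 0.148 and 0.0904). The list's median difference was -0.86. No call was left without control library 1 or without control library 4, 1 was left without control library 2 or Tβ10 library 3, and 4 genes were called without Tβ10 library 2.

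With Tβ4 none of the 25 microglial genes tested passed, as 0% of all 22205 genes did (limma; 1568 had an unadjusted p under 0.05, edgeR called none and DESeq2 called 65). The list's median difference was 0.66, or 0.37 without library 1, opposite in sign to that of Gpnmb. The sets tested differ, with 18 genes for NP24, 20 for Tβ10 and 25 here. A gene that met the minimum in all 4 controls was tested in every comparison. Genes tested only here thus needed Tβ4 libraries to enter, which favours a higher median. Genes low with NP24 or Tβ10 could enter through the controls, which favours a lower median there. The sign of these medians is therefore partly set by the filter. Leaving out Tβ4 library 1 left no gene called, while leaving out Tβ4 library 2 gave 354 called genes in all, of which 1 was in this list (C1qc, a complement component, 2.04 higher, adjusted p = 0.0462 in limma).

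The summed level of the microglial list ranged from 3367 to 4078 normalized counts in the controls, 2707 to 2824 with NP24, 2455 to 3644 with Tβ10 and 3344 to 6379 with Tβ4. Cx3cr1 made up 35.7% of that sum in the controls and did not pass the test in any comparison. Without it, a step added after its level was seen, the other 29 genes summed to 2105 to 2699 in the controls, 1342 to 1445 with NP24, 1265 to 2282 with Tβ10 and 2095 to 4982 with Tβ4. Without Tβ4 library 1 the highest Tβ4 sum was 4366 for the 30 genes and 2890 for the 29. Gpnmb equalled 12.7% ± 3.24 (SD, n = 4) of the 30-gene sum in the controls, 1.92% ± 0.736 after NP24, 1.23% ± 0.484 after Tβ10 and 7.35% ± 2.83 after Tβ4 (6.02% ± 1.197 without Tβ4 library 1, SD, n = 3). The share of Gpnmb was thus lower in every NP24 and Tβ10 library (0.611% to 2.96%) than in any control (7.94% to 14.7%).

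Individual phagocyte genes gave a different measure of unequal change. Cd68 held 232, 164, 124 and 143 normalized counts in the controls, 51.0, 73.5, 73.0 and 67.6 with NP24, 63.8, 46.6, 63.1 and 93.8 with Tβ10, and 246, 96.5, 183 and 121 with Tβ4. Every NP24 and Tβ10 library lay below every control, and the Tβ4 libraries straddled the controls. Gpnmb was 283% ± 50.5 (SD, n = 4) of Cd68 in the controls, 78.9% ± 23.8 after NP24, 65.2% ± 45.0 after Tβ10 and 206% ± 64.8 after Tβ4 (177% ± 34.8 without Tβ4 library 1, SD, n = 3). Set against Lyz2, Gpnmb was 491% ± 225 in the controls, 388% ± 296 after NP24, 273% ± 88.5 after Tβ10 and 263% ± 37.9 after Tβ4 (245% ± 9.66 without Tβ4 library 1, SD, n = 3). The ranges of this last ratio overlapped between the controls and NP24 and between the controls and Tβ10.

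Gpnmb is itself named among the genes of disease-associated microglia, and 28 other genes of that state formed a further list. With NP24, 6 of the 21 tested fell, where 2.63% of all genes were called: Spp1, which encodes the secreted glycoprotein osteopontin (-3.14, adjusted p = 0.00348, limma), Atp6v0d2, a subunit of the lysosomal proton pump of phagocytes (-2.16, 0.0371), Lgals3, the lectin galectin-3 (-1.86, 0.01996), Ctsd, and the tetraspanins Cd63 and Cd9. With Tβ10, 2 of 20 fell, Ctsd and Cd63, where 0.633% of all genes were called. With Tβ4 none of 25 passed, though 5 were called higher without Tβ4 library 2. The 6 calls with NP24 became 1 without control library 1, 2 without control library 2 and 3 without control library 4 or NP24 library 3. The 2 with Tβ10 became 0 without control library 1, 1 without any other control library or without Tβ10 library 3 or 4, and 5 without Tβ10 library 2. Of the 8 fits of the NP24 comparison with 1 library left out, 2 called Cd9 and 2 called Atp6v0d2. Spp1 was called in the 4 of them in which it met the minimum for testing, and was not tested in the fits without a control library. Each of its NP24 libraries lay below the minimum count, so the 4 controls alone brought it into the test. The filter thus admitted Spp1 only as a gene lower with NP24, and its calls cannot show that direction or its stability. Apoe, which encodes the lipid carrier apolipoprotein E and was among the most abundant of the list, did not pass in any comparison (-0.24, -0.44 and 0.10), and passed with Tβ4 without Tβ4 library 2 (0.48, adjusted p = 0.0317, limma). Spp1 held 73.2, 55.2, 48.4 and 41.7 normalized counts in the controls and 3.71, 3.20, 8.12 and 7.12 with NP24. It held 5.36, 27.7, 9.01 and 11.9 with Tβ10, where it missed the threshold (-2.14, adjusted p = 0.0556), and shares 18.8% of its exon bases with another gene.

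The lysosome was represented by 93 genes: 46 for enzymes and their activators, 28 for membrane proteins and 19 for the proton pump. With NP24, 10 of the 92 tested fell and none rose (2.63% of all genes were called), and with Tβ10 5 of 92 fell and none rose (0.633%). With Tβ4 none passed. The median differences of the 92 genes were -0.20, -0.15 and -0.05, and Gpnmb lay far below them in the NP24 and Tβ10 comparisons. As Gpnmb was chosen with its difference known, that place is a description only.

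Among the enzymes, Ctsd fell with NP24 (log2 difference -1.15, adjusted p = 0.000318, limma) and with Tβ10 (-1.07, 0.00692). It held 2269, 1450, 1393 and 1623 normalized counts in the controls, 815, 869, 793 and 550 with NP24, 528, 1011, 856 and 848 with Tβ10, and 2798, 887, 1967 and 1653 with Tβ4. The NP24 and Tβ10 libraries all lay below the controls, as Tβ4 library 2 did. Ctsd shares 34.4% of its exon bases with another gene model, so its level is uncertain. Scpep1, a serine carboxypeptidase, fell with NP24 (-0.84, 0.00125) and with Tβ10 (-0.80, 0.00642).

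Other enzymes fell in 1 comparison. With NP24 these included Tpp1, tripeptidyl peptidase 1 (-0.86), and Psap, the precursor of the saposins that activate sphingolipid hydrolases (-0.37). With Tβ10 it was Ctsa, the protective protein cathepsin A (-0.61), which shares 17.4% of its exon bases with other genes. Psap had the most normalized counts of the enzyme list and stood at 1454 per kilobase in the controls. The cathepsin Ctsb and the sulfatase Ids, next in normalized counts, did not pass in any comparison, although Ids passed with NP24 without NP24 library 4 (0.38, adjusted p = 0.0213, limma).

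Among the membrane proteins, Cd63 fell with NP24 (-0.87, adjusted p = 0.0267, limma) and with Tβ10 (-1.005, 0.0381), and Cd68 fell with both. Lamp2, a receptor of chaperone-mediated autophagy, fell by 0.53 with NP24 (0.0181). The abundant membrane genes Scarb2, the receptor for glucocerebrosidase, Abca2, a lipid transporter, and Lamp1, a structural glycoprotein, did not pass in any comparison. In the proton pump list, Atp6v0d2 alone fell, with NP24, while the abundant subunits Atp6v0a1, Atp6v1a and Atp6v1h had differences between -0.17 and 0.01 with all 3 peptides and did not pass.

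The lysosomal counts depended on single libraries. With NP24 the 10 calls became 2 without control library 1, 4 without control library 2, 6 without control library 4 or NP24 library 3, and 5 without NP24 library 1. With Tβ10 the 5 calls became 0 without control library 1, 2 without control library 2, control library 4 or Tβ10 library 3, 3 without control library 3 or Tβ10 library 4, and 10 without Tβ10 library 2. Ctsd with NP24 passed in each of the 8 fits that left out a library (adjusted p from 0.000128 to 0.00465, limma), as Scpep1 did. Other named calls were held by fewer of the 8 fits. With NP24, Lamp2 passed in 5, and Tpp1, Psap and Cd63 in 3 each, and with Tβ10 Cd63 and Ctsa passed in 2 each.

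**Figure D2:**
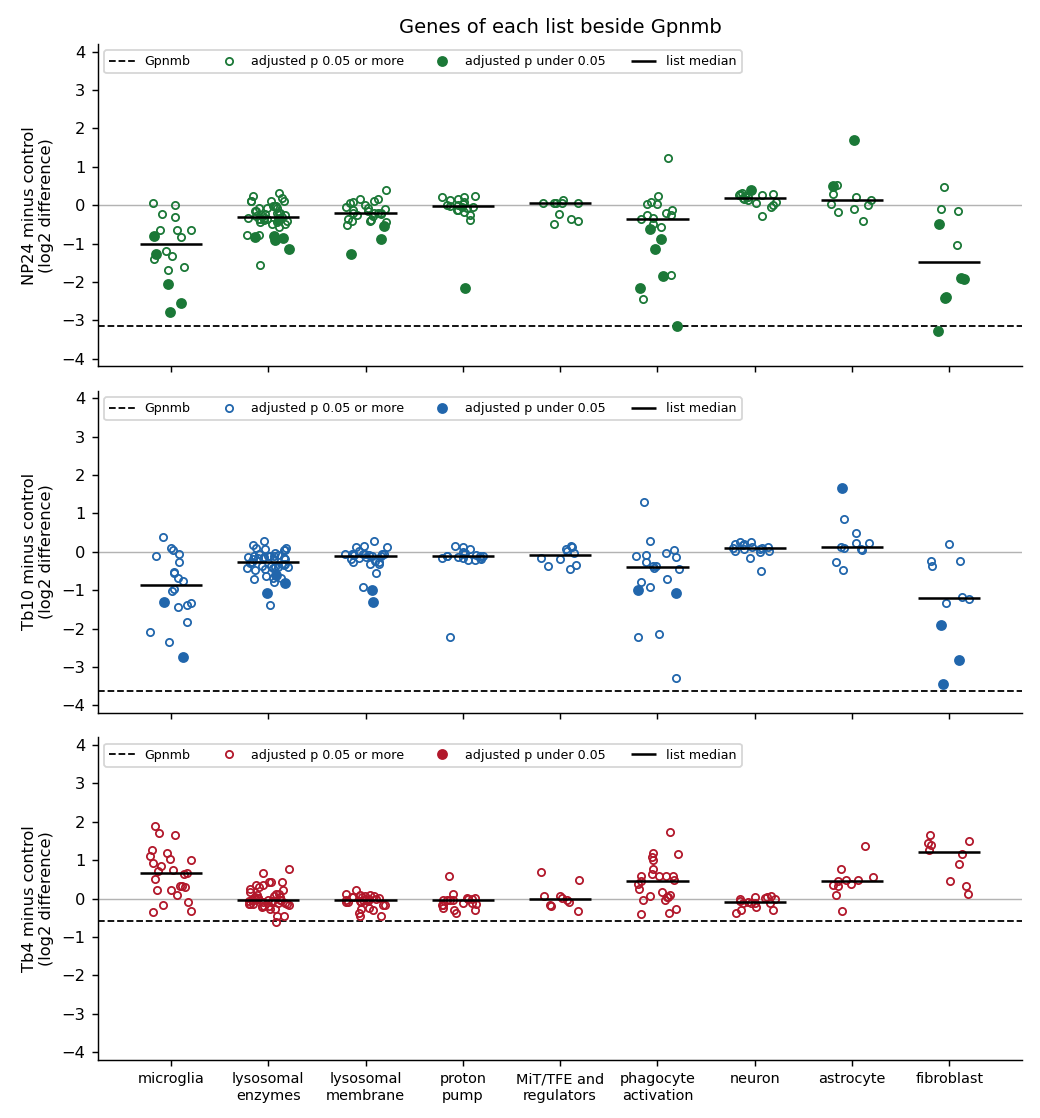
Log2 differences from control of the tested genes of 9 lists for NP24 (top), Tb10 (middle) and Tb4 (bottom); filled points passed limma at an adjusted p under 0.05, open points did not, short black lines are list medians and the dashed line is Gpnmb. The dashed line lies at -3.14 and -3.63 in the upper panels, below all points of the lysosomal lists, and at -0.58 in the lowest.

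The summed level of the 93 lysosomal genes ranged from 67655 to 73942 normalized counts in the controls, from 60561 to 64524 with NP24, from 55355 to 71029 with Tβ10 and from 58617 to 74385 with Tβ4. The NP24 sums lay below all controls, while the other groups overlapped them. Gpnmb equalled 0.655% ± 0.139 (SD, n = 4) of that sum in the controls, 0.0839% ± 0.0335 after NP24, 0.0610% ± 0.0245 after Tβ10 and 0.517% ± 0.354 after Tβ4 (0.342% ± 0.0646 without Tβ4 library 1, SD, n = 3).

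None of the transcription factors known to drive Gpnmb passed the test. Mitf held 444 normalized counts on average in the controls, 333 after NP24, 447 after Tβ10 and 648 after Tβ4 (686 without Tβ4 library 1), and did not pass in any comparison (differences of -0.43, -0.02 and 0.48). Tfeb (0.06, 0.14 and 0.69) and Tfe3 (0.05, -0.16 and 0.02) did not pass either. Tfec, the macrophage member of the family, was too low to be tested and held 97.6 normalized counts in Tβ4 library 1 and at most 20.1 in any other library. None of the 10 tested genes of this list, which includes regulators of the factors such as Fnip1, Fnip2 and Rragd, passed with any peptide. When a library was left out 1 gene was called lower in each of 3 fits. These were Mitf with NP24 without NP24 library 4 (-0.56, adjusted p = 0.0496, limma), Flcn, a regulator of the factors, with NP24 without NP24 library 2 (-0.59, 0.0402) and Rragd with Tβ10 without Tβ10 library 2 (-0.64, 0.0173).

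Of 22 autophagy genes, Wipi1, which encodes a phosphoinositide-binding protein of the forming autophagosome, fell with NP24 (-0.60, adjusted p = 0.0250, limma) and with Tβ10 (-0.68, 0.0359). The call was lost with NP24 without control library 1, 3 or 4 or NP24 library 3, and with Tβ10 without any 1 control library, without Tβ10 library 3 or 4 and with scaling to library size. No other autophagy gene passed, Sqstm1, Ulk2 and Nbr1 included. Of 11 genes for relatives, sheddases and receptors of GPNMB none passed, although Sdc4, which encodes syndecan-4, was called higher with Tβ4 without Tβ4 library 2 (1.36, adjusted p = 0.0185, limma). Adam10, the sheddase, had differences of 0.15, 0.00 and 0.08, and Pmel, the melanosomal relative, of -0.37, -0.62 and -0.44. The receptor Cd44 had differences of -0.56, -0.40 and 0.75.

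Melanocytes also make Gpnmb, and 14 of their markers were examined. None of the 8 tested with NP24, the 7 with Tβ10 or the 8 with Tβ4 passed, although Ednrb was called higher with Tβ4 without Tβ4 library 2 (0.77, adjusted p = 0.00616, limma). Tyrp1 was at 0 in 11 of 16 libraries and Gpr143 in 10, and the summed level was 1880 to 2382 in the controls, 2046 to 2458 with NP24, 1740 to 2325 with Tβ10 and 1635 to 3007 with Tβ4 (at most 2615 without Tβ4 library 1), most of it from Ednrb, Sox10 and Kit, which other neural cells express.

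Markers of connective tissue and vessels were also low beside Gpnmb with NP24 and Tβ10. Of 10 fibroblast genes tested, 6 fell with NP24 and 3 with Tβ10, and none rose, where 2.63% and 0.633% of all genes were called. The collagen gene Col3a1 had differences of -3.29 with NP24 (adjusted p = 0.00116, limma) and -3.43 with Tβ10 (0.00709), and Col1a1 of -2.40 (0.00796) and -2.81 (0.00243). The list's summed level was 3252 to 3979 in the controls, 2485 to 2736 with NP24, 2256 to 3031 with Tβ10 and 3903 to 7340 with Tβ4 (at most 5327 without Tβ4 library 1). Its median difference with Tβ4 was 1.204 (0.85 without library 1), and none of the 10 genes passed there, though 6 were called higher without Tβ4 library 2. The 6 calls with NP24 became 2 without control library 1, and 3 with Tβ10 became 1 without control library 1 or 4. The pericyte genes Rgs5 and Pdgfrb fell with both NP24 (-1.68 and -0.95) and Tβ10 (-2.21 and -0.97), 2 of 5 and 2 of 6 vessel genes tested. These vessel calls were both lost without control library 1 or 4, and with Tβ10 also without control library 3 or Tβ10 library 4. With NP24 1 was left without NP24 library 3, and with Tβ10 1 was left without control library 2 or Tβ10 library 3. With Tβ4 none of 6 vessel genes passed, and their median difference was 0.93 (0.53 without library 1). The list's summed level was 399 to 642 in the controls and 743 to 1929 with Tβ4 (at most 1158 without library 1). Without Tβ4 library 2, Rgs5 and Pdgfrb were called higher (2.00 and 1.03, adjusted p = 0.00218 and 0.0343, limma). The part of these other cell types in the Gpnmb values was not tested.

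Some markers of neural cells passed, where all genes compared gave 2.63% called with NP24 and 0.633% with Tβ10. Syn1, a synaptic vesicle gene, rose by 0.40 with NP24 (adjusted p = 0.0131, limma), 1 of 16 neuronal genes (6.25%). The astrocytic water channel gene Aqp4 rose by 1.70 with NP24 (0.000934) and by 1.67 with Tβ10 (0.01005). The bicarbonate transporter gene Slc4a4 rose by 0.51 with NP24 (0.0114). These were 2 of 11 astrocytic genes with NP24 (18.2%) and 1 of 11 with Tβ10 (9.09%). In the oligodendrocyte lineage Olig2 and Mbp fell with NP24 (-0.67 and -0.59), 2 of 10 genes tested (20%). Aqp4 with Tβ10 did not pass without control library 1 or 4 or Tβ10 library 3, Slc4a4 without control library 1 or 2, and Olig2 without control library 1 or 4 or NP24 library 3. Syn1 did not pass without control library 1 or NP24 library 3, while 4 neuronal genes were called higher without NP24 library 4 and 3 with scaling to library size. Leaving out control library 4 added Gfap, an astrocytic filament gene, to the calls with NP24. With Tβ4 none of these genes passed with all libraries, but the fit without Tβ4 library 2 called 354 genes in all. There 7 of 11 astrocytic genes were called higher, Aqp4 and Gfap among them (1.54 and 1.059). In the same fit 3 of 16 neuronal genes were called lower, which were Gad1, Gad2 and Syt1 (-0.50, -0.41 and -0.68).

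The genes whose levels were most like that of Gpnmb were sought over all 16 libraries among 12518 named genes with a mean of at least 50 normalized counts. Likeness was Pearson's r of log2(value + 1), with no p, since the 16 libraries share their groups and the likeness includes the difference by which Gpnmb was chosen. The median r of all these genes was -0.00412, and 18 of them were above 0.9. The 10 highest were Hmox1 (0.934), Gsta4 (0.933), Slc19a2 (0.933), Syde1 (0.932), Lyz2 (0.926), Btg2 (0.924), Egr1 (0.923), Slc7a11 (0.916), Eif4ebp1 (0.914) and Ctsd (0.913), and the next gene stood at 0.912.

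The first of these is Hmox1, the haem-degrading oxygenase induced by oxidative stress. It held 465, 206, 185 and 313 normalized counts in the controls, 95.4, 104, 70.7 and 76.5 with NP24, 48.8, 120, 55.8 and 64.8 with Tβ10, and 399, 144, 281 and 272 with Tβ4. As for Gpnmb, the NP24 and Tβ10 libraries all lay below the controls and Tβ4 library 2 was the lowest of its group. Gsta4, a glutathione transferase that clears lipid peroxidation products, had differences of -1.69 with NP24 and -1.82 with Tβ10. Slc7a11, the cystine/glutamate exchanger, held 2480, 1907, 1074 and 1963 normalized counts in the controls, 347, 403, 372 and 364 with NP24, 484, 543, 377 and 372 with Tβ10, and 1513, 1075, 935 and 1078 with Tβ4. Its control library 3 was the lowest of that group, as it was for Gpnmb.

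Of the other genes in that set, Slc19a2 encodes a thiamine transporter, Syde1 a GTPase-activating protein, Btg2 an antiproliferative early-response protein, Egr1 an activity-induced transcription factor and Eif4ebp1 a repressor of cap-dependent translation. All 10 were lower with NP24 and with Tβ10, with differences of -2.54 to -0.85 and of -2.75 to -0.81. As the genes were picked by a likeness that includes those differences, this is a description of the choice and no test is given. With Tβ4 the differences ran from -0.70 (Gsta4) to 0.27 (Egr1). The lowest r values were those of Eif4e, the cap-binding translation factor (-0.912), Tox2 (-0.911), Camk2g (-0.907), Jakmip1 (-0.898) and Slc6a11, a GABA transporter gene (-0.894). Eif4e had differences of 0.54 with NP24 and 0.53 with Tβ10, where the choice likewise favours a higher level.

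**Figure D3:**
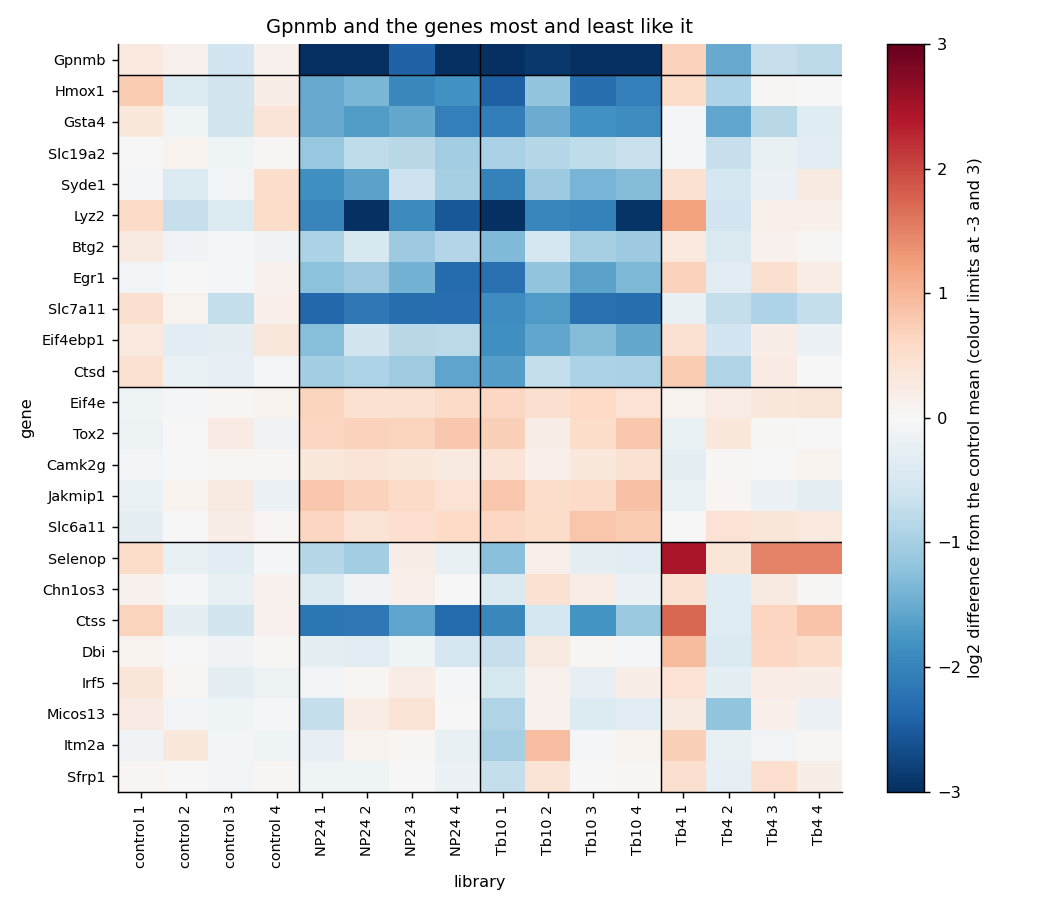
Log2 difference of each library from the control mean for Gpnmb (top), the 10 genes most like it over the 16 libraries, the 5 least like it, and the 8 most like it in deviations from group means. The first 10 genes are lower in the NP24 and Tb10 columns, the next 5 are higher there, and most of the last 8 show no such step between groups.

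Within the lists, the median r with Gpnmb over the 16 libraries was 0.61 for the 26 microglial genes with a mean of at least 10 normalized counts, 0.53 for the 45 enzyme genes, 0.20 for the 28 membrane genes and 0.16 for the 19 proton pump genes. Lysosomal membrane genes covered a wide range, from -0.72 to 0.90, and Cd68 was the highest of them. Cx3cr1 (0.03) and Mitf (0.21) were among those with little likeness, while Ctss (0.87), Laptm5 (0.85), Spp1 (0.89) and Scpep1 (0.91) had much. Of the other MiT/TFE factors, Tfeb had 0.21, Tfe3 0.26 and Tfec 0.58, the last at a mean of 10.2 normalized counts.

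To use variation that had no part in the choice of Gpnmb, each library's value was set against its own group's mean. Over the 16 libraries, the deviation of Gpnmb was related to that of the summed microglial list with Pearson's r = 0.797 and a Spearman coefficient of 0.671 (permutation p = 0.00705 and 0.0146, libraries shuffled within groups, two-sided). After adjustment over the 18 relations computed, these p-values were 0.0684 and 0.132, so the relation did not pass. It passed without control library 2 (r = 0.818, adjusted permutation p = 0.0493), control library 3 (0.858, 0.0194), NP24 library 3 (0.831, 0.0428) or Tβ10 library 4 (0.801, 0.0436). Without Tβ4 libraries 1 and 2, the libraries farthest from the median of the microglial deviations, r was 0.608. Without Tβ4 library 1 alone, r was 0.657 (adjusted permutation p = 0.0884).

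For the 93 lysosomal genes together r was 0.682 and the Spearman coefficient 0.568 (permutation p = 0.0426 and 0.0486, adjusted 0.110 and 0.146), and r was 0.248 without Tβ10 library 1 and Tβ4 library 2, on which the relation thus rested. Without Tβ4 library 1, r was 0.761 (adjusted permutation p = 0.0472). For the enzyme list alone r was 0.770 (adjusted permutation p = 0.0684), for the membrane list 0.325 (0.421) and for the proton pump 0.483 (0.266). None of the 18 relations passed at an adjusted 0.05.

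**Figure D4:**
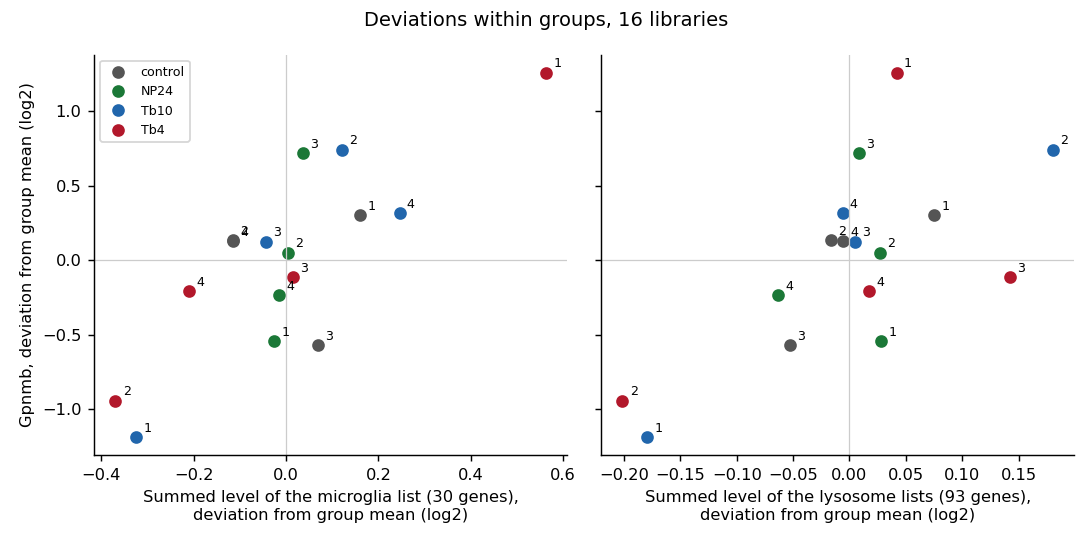
Deviation of Gpnmb from its group mean against that of the summed microglial list (left, r = 0.797) and of the lysosomal lists (right, r = 0.682), both on the log2 scale; each point is a library with its number. Tb4 library 1 is at the upper right on the left, and Tb10 library 1 and Tb4 library 2 are at the lower left in both panels.

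Other measures also varied along with Gpnmb inside the groups, some of them to a like degree with all libraries. The share of mitochondrial ribosomal RNA had r = 0.729 and a Spearman coefficient of 0.585 (adjusted permutation p = 0.0684 and 0.146), the fibroblast list r = 0.733 (0.0684), the disease-associated list r = 0.739 (0.0684), the melanocyte list r = 0.693 (0.0684), the astrocytic list r = 0.538 (0.137) and the neuronal list r = -0.291 (0.526). Depth had r = -0.520 (adjusted permutation p = 0.190). Without the 2 libraries farthest from the median of each measure, r was 0.430 for the mitochondrial share and 0.461 for the fibroblast list. It was 0.397 for the disease-associated list, 0.394 for the melanocyte list, -0.00474 for the astrocytic list, 0.357 for the neuronal list and -0.316 for depth. The mitochondrial ribosomal share was 9.32% to 14.2% in the controls, 5.98% to 8.12% with NP24, 4.76% to 9.53% with Tβ10 and 8.25% to 24.3% with Tβ4, so it was also lower in every NP24 library than in any control. Its part in the Gpnmb values was not tested.

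The genes whose deviations were most like those of Gpnmb were Selenop, the plasma selenium carrier (0.885), Chn1os3, an antisense transcript (0.868), Ctss (0.866), Dbi, the acyl-CoA-binding protein (0.854), Irf5, an interferon regulatory factor of macrophages (0.845), Micos13 (0.839), Itm2a (0.835) and Sfrp1, a secreted Wnt inhibitor (0.830). Of these, Ctss alone passed in a comparison with control, with NP24. Ctss held 119, 61.8, 50.8 and 81.7 normalized counts in the controls, 15.7, 15.99, 24.3 and 14.2 with NP24, 18.8, 51.0, 20.7 and 34.1 with Tβ10, and 246, 56.8, 117 and 136 with Tβ4. The library that was highest or lowest for Ctss within NP24, Tβ10 and Tβ4 was, but for the lowest of NP24, the one that was so for Gpnmb. Ctss and the other 7 genes were picked from 12518 by these same deviations. The choice thus favours such agreement, which is a description with no test. Selenop had a difference of 1.45 with Tβ4 (adjusted p = 0.458, limma), opposite in sign to that of Gpnmb. The MiT/TFE factors differed among themselves within groups. Mitf had r = -0.68 with Gpnmb, while Tfeb had 0.14, Tfe3 0.37 and Tfec, which was too low to be tested between groups, 0.66.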

How the data were processed

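Total RNA libraries of cultured neurons (SMARTer Stranded Total RNA-Seq kit, per the labels' protocols) were measured in 4 groups of 4. HISAT or HISAT2, featureCounts and DESeq2 with GRCm38 are named by the authors, per the submitters' processing notes; the strand setting and versions are not given in the sources used here. The deposited library values are a signal, which is the gene count scaled by the authors with a size factor of each library, the same in all 3 deposited tables. All nonzero values (100%) were whole multiples of 1 read at a tolerance of 0.01 reads, so whole reads were recovered. The authors' deposited table also gives log2 fold changes, a Wald score and p-values, of which the Gpnmb log2 values are printed.

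Genes that reached 10 normalized counts in 4 or more of the 8 libraries were tested with limma 3.58.1 (trend, R 4.3.3) on log2(value + 1), each peptide against the shared controls, with Benjamini-Hochberg adjustment over all genes and a threshold of 0.05. The test was tried on simulated counts first. Tried beside it were a pseudocount of 10, edgeR 4.0.16 and DESeq2 1.42.0 with recovered reads, scaling to library size, no filter, the replicate number as a block, and each library left out. Deviations from group means were related with 100000 shuffles within groups (scipy), with adjustment over 18 measures. Exon lengths and overlaps came from GENCODE M21, in which 45596 gene identifiers were found, and promoter windows from RefSeq. Gpnmb, the gene lists and the alternatives were chosen with earlier results of these data known. Named genes were the 10 most and 5 least like Gpnmb, the 8 most like it within groups, and the 3 most abundant and up to 6 called members of each list per comparison, with Mitf, Tfeb, Tfe3, Tfec, Pmel and Adam10. Tmem119, Siglech, Cd14, Tyrp1, Gpr143, Cd44, C1qc, Flcn, Sdc4, Gfap, Gad1, Gad2 and Syt1 were named after their values were seen, and Malsu1 and Igf2bp3 for their position. Some called list members are counted but not reported here by name. Read depth sets the counting error of Gpnmb; intervals cover counting error only. Deviations of same-numbered libraries had correlations from -0.0948 to 0.0746 between the controls and the peptide groups. Between peptide groups they ran from -0.410 to 0.135. With 4 libraries per group, these values cannot show whether the numbers pair the samples, and the labels do not say. The main fits took the libraries as unpaired.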

Additional observations from a re-analysis of the deposited data

Results flagged for a closer look

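In NP24 library 4, Laptm5, the lysosomal adaptor of phagocytes, stood apart from the other libraries of its group. It held 19.6 normalized counts, where the nearest library held 7.46 and the lowest 5.80, so that the gap made up 0.879 of the group's range. The library nonetheless lay below the lowest control (39.1). Of 52 groups of 4 libraries examined, from 11 genes and 2 list sums, this was the 1 that passed Dixon's criterion, and chance alone gives about 1 in 20. For Gpnmb the gap of Tβ4 library 1 made up 0.785 of the range of its group, short of the criterion.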

How the results depend on the processing

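The Gpnmb differences kept their direction under every alternative run. They lay between -3.38 and -2.96 for NP24 and between -3.88 and -3.24 for Tβ10 when libraries were left out, and for Tβ4 between -0.999 and -0.27, where libraries 1 and 2 set the limits. Counts of called genes were less stable. DESeq2 gave 1167 genes for NP24 (572 with limma), 427 for Tβ10 (139) and 65 for Tβ4 (0), and called 16 lysosomal genes for NP24, 10 for Tβ10 and 5 microglial genes for Tβ10. Scaling to library size gave 764 genes for NP24, 508 higher and 256 lower, against 253 and 319, and 122 for Tβ10, 55 higher and 67 lower, against 22 and 117. With that scaling 1 microglial and 2 lysosomal genes were called for Tβ10. The fit with no filter called 2 genes for Tβ4.

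With the replicate number as a block, 91 genes were called for Tβ10, 2 for Tβ4, and 1 microglial and 2 lysosomal genes for Tβ10. The block gave r = 0.845 between Gpnmb and the microglial list (adjusted permutation p = 0.0383), past the threshold. It moved 6 further list counts by over 1.5 times: with Tβ10 the disease-associated and the vessel list from 2 to 1, autophagy from 1 to 0, lysosomal membrane from 2 to 0 and the astrocytic list from 1 to 2, and with Tβ4 the vessel list from 0 to 1. No other count of calls moved as far. Same-numbered libraries are known to share only a number.

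Leaving out 1 library at a time gave 106 to 760 genes for NP24, 28 to 315 for Tβ10 and 0 to 354 for Tβ4, 1 to 5 microglial genes for NP24, 0 to 4 for Tβ10 and 0 to 1 for Tβ4, and 2 to 13 lysosomal genes for NP24, 0 to 10 for Tβ10 and 0 to 1 for Tβ4. The r of Gpnmb ranged from 0.657 to 0.858 with the microglial list and from 0.539 to 0.785 with the lysosomal lists. With the mean log2 level of the members in place of their sum, r with the lysosomal lists was 0.809 (adjusted permutation p = 0.0280). Without the members that share 10% or more of their exon bases with another gene, an alternative chosen after seeing the data, r was 0.801 and 0.586. Of 66 called results for single named genes, 22 passed under every alternative run in which the gene was tested. They include Spp1 with NP24, which was not tested in the fits without a control library. The cause of these changes was not tested, except that leaving out a library leaves fewer samples. Depth limits Gpnmb most in Tβ10, where 26 to 54 reads stood behind each value.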
